A study of Mus musculus with 59 samples.

Results

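Promoter and enhancer histone marks at the genes of the transforming growth factor-beta (TGF-beta), bone morphogenetic protein (BMP) and activin family were compared across ages of the mouse uterus. Members were chosen by gene symbol. Every peak was taken that the deposited tables named for a TGF-beta ligand or receptor, a BMP or BMP receptor, a SMAD, an inhibin or activin subunit or receptor, a growth differentiation factor (Gdf), a latent TGF-beta binding protein (Ltbp), an antagonist such as Grem1, follistatin or a follistatin-like gene, noggin or chordin. The rule found 89 of 25827 H3K4me3 peaks, at 50 of 15805 gene symbols, and 198 of 54354 H3K27ac peaks, at 42 of 16763 gene symbols. Together these are 51 genes, of which 41 had peaks in both marks. H3K4me3 peaks alone were found at 9 genes, among them Acvr1c, Bmp3, Bmp8a, Bmp8b, Gdf6 and Nog, and Gdf5 (1 gene) had an H3K27ac peak alone. Bmp1, a protease that cleaves procollagen and chordin, and Bmp2k, a kinase, match by name and are not ligands. No filter on low values was applied, so each member peak was tested.

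All samples were uterine tissue of C57/B6 mice, with no treatment or mutation named. The sample label reads uterus and the protocol speaks of snap-frozen endometrial pieces, and how much of the muscle wall they held is not given in the sources used here. Histone ChIP-seq was run on aliquots of nuclei by native ChIP, in which MNase cuts the chromatin, and each mark was read in the same 27 mice. The young group was 9 to 11 weeks old (n = 7), aged group 1 was 28 to 36 weeks (n = 4), aged group 2 was 42 to 48 weeks (n = 6), and aged group 3 was 54 to 65 weeks (n = 10). The stage of the oestrous cycle is not given in the sources used here. Values are quantile-normalized log2 RPKM (read density per kilobase, scaled to the size of the library), so a difference of 1 is a doubling, and levels can be compared between genes. H3K4me3 marks active gene starts, and H3K27ac marks active promoters and enhancers. A promoter peak here is a peak within 1 kb of a RefSeq start of the gene that the table names. A gene body peak lies elsewhere inside that gene, with exons and introns not distinguished, and a flank peak lies outside it. Coordinates are GRCm38.

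Library totals recovered from the steps of the deposited values ran from 6.835 to 48.29 M reads for H3K4me3, with 12.76 M as the second highest, and from 7.604 to 16.945 M reads for H3K27ac. The median peak held 120 and 50 reads. Markers of uterine stroma and epithelium were present, with H3K4me3 promoter peaks at 18 of 24 genes of each list, against 1 of 8 for ovary and 0 of 6 for liver. No member is in these lists. The balance of the epithelial and stromal lists differed between ages. The mean log2 H3K4me3 over the epithelial promoters minus that over the stromal ones, here called the epithelium minus stroma score, averaged -0.872 in young and 0.975 in aged group 3, a difference of 1.85 (exact permutation test, two-sided p = 0.00381, n = 7 and 10). For H3K27ac it averaged -0.580 and 0.789, a difference of 1.37 (exact permutation p = 0.00396). The mean stromal level fell from a range of 3.07 to 3.62 in young to 1.79 to 3.66 in aged group 3, and the epithelial level rose from 2.24 to 2.97 to a range of 2.35 to 4.09. Mean log2 H3K4me3 at smooth muscle promoters (12 of 12 measured) was lower in aged group 3 by 0.62 (exact permutation p = 0.00242), and at mesothelial promoters (5 of 6 measured) by 1.49 (exact permutation p = 0.00288). Leukocyte promoters were higher in aged group 3 by 0.39 in H3K27ac (8 of 12 measured, exact permutation p = 0.0146), and by 0.16 in H3K4me3, which did not pass (11 of 12 measured, exact permutation p = 0.207). Replicates 3, 4 and 10 of aged group 3 had H3K4me3 scores of -0.294, -0.239 and -1.31, and the young libraries lay between -1.38 and -0.254. In bulk tissue, fewer cells of a type and less of a mark per cell cannot be told apart, and the part of cell composition in the differences below was not tested.

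Ligands of this family are secreted dimers. They bring type II and type I receptor kinases together, the type I receptor phosphorylates receptor-activated SMADs, and these enter the nucleus with the common SMAD4. TGF-beta ligands are stored in the matrix bound to latent TGF-beta binding proteins, while follistatin, noggin, chordin and Grem1 bind BMPs or activins and keep them from their receptors. In the mouse uterus, Bmp2 is known as a gene that stromal cells need for decidualization, and SMAD signals restrain epithelial growth.

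In aged group 3 against young, H3K4me3 fell at 22 and rose at 8 of the 89 member peaks (limma with Benjamini-Hochberg adjustment over all peaks, adjusted p under 0.05). That is 33.7% of them, beside 30.7% of all H3K4me3 peaks, of which 14.2% rose and 16.4% fell. The rises depended on the processing more than the falls. On values as deposited 19 fell and 3 rose, and of the 59 member peaks left by a filter on low levels 17 fell and 1 rose. Without young replicate 1, 17 fell and 2 rose, and without aged group 3 replicate 10, 26 fell and 13 rose. At the promoters the split leaned further down. With 1 promoter peak taken per gene, 16 of 47 genes fell and 2 rose, beside 18.3% and 9% of all promoter peaks. Of the 47 changes, 32 were negative (median -0.17 log2), beside 7693 of all 13107 promoter peaks (median -0.04). H3K27ac fell at 54 and rose at 21 of 198 member peaks, or 37.9%, beside 29.3% of all H3K27ac peaks, of which 14.4% rose and 14.9% fell. Of 33 genes with an H3K27ac promoter peak, 13 fell and 2 rose, beside 19.3% and 6.74% of all promoter peaks. The share called over all member peaks lay close to the background for H3K4me3. For H3K27ac most of the excess came from 1 locus, Tgfbr3, described further on. Without its 28 peaks, 53 of 170 member peaks passed, or 31.2%, of which 21 rose and 32 fell. The 16 lower H3K4me3 promoters were 9 ligand genes, 3 antagonists, Fstl1, Ltbp4, the co-receptor Tgfbr3 and Smad9. None of the 7 type I and 4 type II receptors passed at its main promoter.

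**Figure D1:**
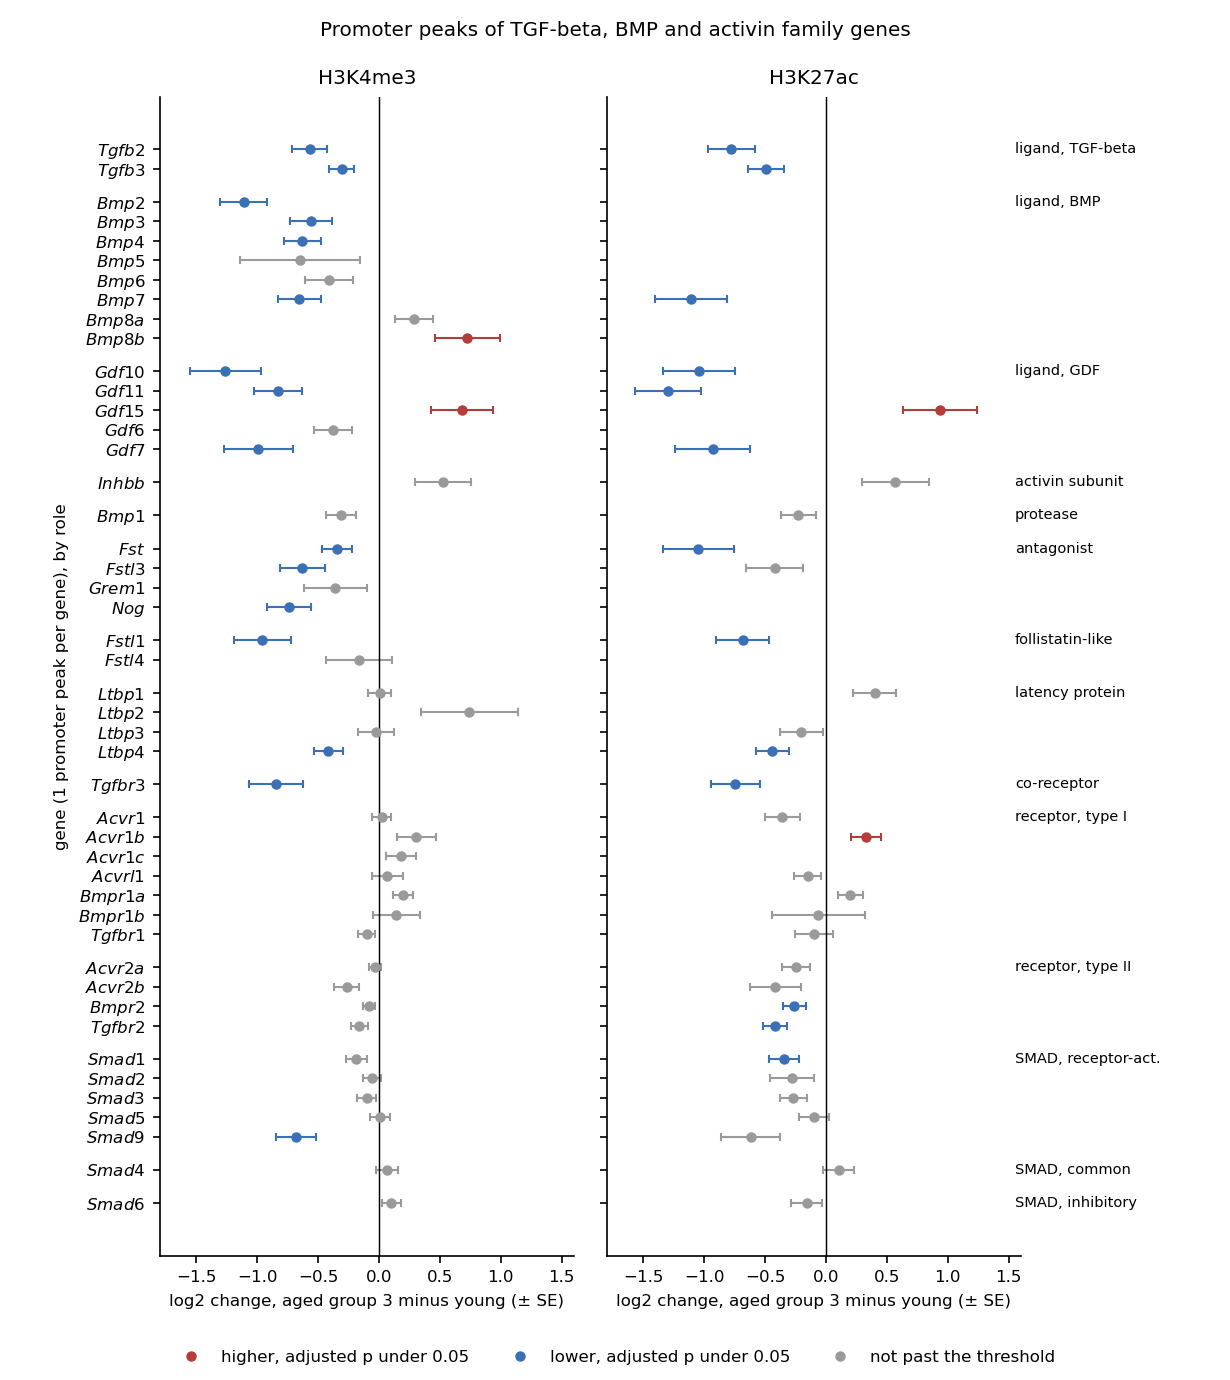
Log2 change at promoter peaks, aged group 3 minus young (x axis, with standard errors), for member genes (y axis, ordered by role), in H3K4me3 and H3K27ac; blue points fell and red points rose in the limma test, and grey points did not pass. Blue points sit to the left among ligands and antagonists, from Gdf10 at -1.26 in H3K4me3 and Gdf11 at -1.30 in H3K27ac, while the medians of the receptor and SMAD points are -0.01 and -0.06 in H3K4me3 and -0.25 and -0.27 in H3K27ac.

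Ligands held most of the lower promoters. Of 16 ligand genes with an H3K4me3 promoter peak, 9 fell and 2 rose (median -0.56 log2), beside 18.3% and 9% of all promoter peaks. Bmp2 had the smallest adjusted p of all member promoters (chromosome 2, 133551790 to 133555412, a median of 262 reads). Its H3K4me3 lay between 3.13 and 3.62 log2 RPKM in young (median 3.30), at 3.13, 3.19, 3.25 and 3.27 in aged group 1, between 2.46 and 3.41 in aged group 2 (median 3.02), and between 1.27 and 3.28 in aged group 3 (median 2.12). Of the 10 oldest libraries, 9 were below every young library, and only replicate 4, at 3.28, was inside the young range. The mean went from 3.36 ± 0.19 (SD, n = 7) to 2.24 ± 0.59 (SD, n = 10), a change of -1.11 ± 0.19 log2 (SE, limma adjusted p = 0.000249). This call held when any library of either group was left out (highest adjusted p = 0.00109). Replicates 3 and 10 of aged group 3, whose epithelium minus stroma scores were young-like, were at 2.94 and 2.61, below every young library. Their mean H3K4me3 at mesothelial promoters was 0.994 and -0.35, below the lowest young library at 1.322, and replicate 4 was at 2.741. The part of these cells in the Bmp2 change was not tested. Once the score was a covariate the change was -0.40 (limma adjusted p = 0.291).

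Bmp4, a BMP close to Bmp2 in sequence, fell by 0.63 ± 0.15 log2 (limma adjusted p = 0.00342). Its promoter H3K4me3 ran from 3.00 to 3.33 in young (median 3.12), was 2.86, 3.13, 3.29 and 3.30 in aged group 1, ran from 2.81 to 3.52 in aged group 2 (median 3.02) and from 1.91 to 3.25 in aged group 3 (median 2.52). As at Bmp2, 9 of 10 libraries of aged group 3 were below every young library, and the younger aged groups overlapped the young one. Bmp7, a ligand needed for kidney development, fell by 0.66 ± 0.18 (limma adjusted p = 0.00773), from a young range of 2.31 to 3.53 to one of 1.81 to 3.13. Bmp3, which acts against other BMPs in bone, fell by 0.56 ± 0.17 (limma adjusted p = 0.0163). The ranges of both overlapped between young and aged group 3. Bmp5 (-0.65 ± 0.49, limma adjusted p = 0.322), Bmp6 (-0.41 ± 0.20, p = 0.116) and Bmp8a (0.28 ± 0.16, p = 0.164) did not pass. Bmp8b rose by 0.73 ± 0.27 (limma adjusted p = 0.0381) on a median of 22 reads, from 0.75 to 1.25 in young to 0.79 to 2.19 in aged group 3, and 9 of 10 libraries were above every young one. It passed in 6 of 17 fits that each left out 1 library (highest adjusted p = 0.072).

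The growth differentiation factors held the greatest H3K4me3 loss of the member promoters. Gdf10, a ligand also known as Bmp3b, ran from 2.11 to 3.26 in young (median 2.92). It was 2.06, 2.27, 2.76 and 3.07 in aged group 1, ran from 0.55 to 2.83 in aged group 2 (median 2.46) and from 0.68 to 2.79 in aged group 3 (median 1.47). Its change was -1.26 ± 0.30 log2 (limma adjusted p = 0.00307), with 7 of 10 libraries below every young library. Gdf11, a close relative of myostatin, ran from 2.46 to 3.15 in young (median 2.87), was 2.34, 2.44, 2.79 and 2.85 in aged group 1, ran from 1.96 to 2.73 in aged group 2 (median 2.28) and from 1.43 to 2.94 in aged group 3 (median 2.02). It fell by 0.83 ± 0.20 (limma adjusted p = 0.00325), and 8 of 10 libraries were below the young range. Gdf7 fell by 0.99 ± 0.28 (limma adjusted p = 0.0106), between 1.96 and 3.25 in young and between 0.86 and 3.07 in aged group 3. Gdf6 changed by -0.38 ± 0.16 and did not pass (limma adjusted p = 0.0622). Gdf15, a stress-responsive ligand that signals through GFRAL rather than the SMAD receptors of this family, rose by 0.68 ± 0.25 (limma adjusted p = 0.0406), from 1.66 to 2.33 in young to 1.94 to 3.41 in aged group 3. It passed in 7 of the 17 fits without 1 library (highest adjusted p = 0.0879), and with the score as a covariate its change was -0.27 (limma adjusted p = 0.668).

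Both TGF-beta ligands with a peak of their own fell. Tgfb2 promoter H3K4me3 lay between 3.94 and 4.33 in young (median 4.08), at 4.03, 4.03, 4.10 and 4.15 in aged group 1, between 3.77 and 4.34 in aged group 2 (median 3.98), and between 2.78 and 4.24 in aged group 3 (median 3.40). It changed by -0.57 ± 0.15 log2 (limma adjusted p = 0.00513), and 8 of 10 libraries of aged group 3 were below the young range. Tgfb3, which lay between 3.48 and 3.69 in young and between 2.94 and 3.79 in aged group 3, fell by 0.31 ± 0.10 (limma adjusted p = 0.025). Its adjusted p reached 0.0548 when 1 library was left out, with the call lost without young replicate 1 or aged group 3 replicate 6. Inhbb, the beta B subunit of inhibin and activin, went the other way without passing (0.52 ± 0.23, limma adjusted p = 0.0813), from 1.31 to 2.34 in young to 1.40 to 3.42 in aged group 3.

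The promoter sequences of 3 ligands that fell and of the 3 promoter peaks that rose, one of them at a second start of Bmpr1b, are given so that the base composition of the groups can be compared. RefSeq windows were found for 36 members. Each line is the 250 bases before the start, 5′ to 3′ in the gene's direction, from the RefSeq table for GRCm38.p6. Capitals mark CAGAC or its reverse complement GTCTG, the letters of a SMAD-binding element.
Gdf10, chr14:33923337-33923586, plus strand: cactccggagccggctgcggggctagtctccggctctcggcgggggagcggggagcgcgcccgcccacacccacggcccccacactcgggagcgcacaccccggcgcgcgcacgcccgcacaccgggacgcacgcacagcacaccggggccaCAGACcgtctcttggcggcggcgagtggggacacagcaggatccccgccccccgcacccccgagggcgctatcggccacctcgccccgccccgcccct
Gdf11, chr10:128891719-128891968, minus strand: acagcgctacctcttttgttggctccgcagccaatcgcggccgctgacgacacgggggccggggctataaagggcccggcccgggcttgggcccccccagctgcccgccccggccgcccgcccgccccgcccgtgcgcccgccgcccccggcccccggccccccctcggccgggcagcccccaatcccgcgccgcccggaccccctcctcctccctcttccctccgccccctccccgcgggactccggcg
Bmp4, chr14:46390670-46390919, minus strand: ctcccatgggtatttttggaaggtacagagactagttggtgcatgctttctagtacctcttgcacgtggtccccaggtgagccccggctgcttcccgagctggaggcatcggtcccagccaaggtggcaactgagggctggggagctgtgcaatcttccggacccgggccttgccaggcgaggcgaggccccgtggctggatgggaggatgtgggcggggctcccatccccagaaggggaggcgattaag
Bmpr1b (second start), chr3:141982265-141982514, minus strand: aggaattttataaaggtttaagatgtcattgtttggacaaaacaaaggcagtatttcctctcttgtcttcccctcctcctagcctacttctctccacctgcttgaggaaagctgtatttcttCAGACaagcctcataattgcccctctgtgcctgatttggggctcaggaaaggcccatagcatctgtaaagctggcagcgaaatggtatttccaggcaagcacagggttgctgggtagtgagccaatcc
Bmp8b, chr4:123104911-123105160, plus strand: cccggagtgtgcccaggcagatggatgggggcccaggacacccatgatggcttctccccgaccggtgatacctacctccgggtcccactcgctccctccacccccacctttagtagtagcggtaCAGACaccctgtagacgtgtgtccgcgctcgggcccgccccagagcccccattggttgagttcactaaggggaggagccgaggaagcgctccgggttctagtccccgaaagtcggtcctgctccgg
Gdf15, chr8:70632096-70632345, minus strand: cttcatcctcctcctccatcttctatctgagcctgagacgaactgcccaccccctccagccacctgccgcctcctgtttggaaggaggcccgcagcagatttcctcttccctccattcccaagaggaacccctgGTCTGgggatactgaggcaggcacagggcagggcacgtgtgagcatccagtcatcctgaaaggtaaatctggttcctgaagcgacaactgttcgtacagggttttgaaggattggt
Gdf10 and Gdf11 hold 35 and 33 CpG pairs in these 250 bases, Bmp4 holds 11, and Bmpr1b, Bmp8b and Gdf15 hold 1, 17 and 6. In windows of 300 bases, from 250 before to 50 after the start, the median was 26 CpG pairs (10 to 42) at the 9 lower promoters with a window and 7 (5 to 23) at the 3 higher ones. At the 26 windows under member promoter peaks that did not pass it was 26 (2 to 54), the same median as at the lower promoters. The median over 58 windows of 46 family genes was 22.5, and over all 32851 windows it was 7. CAGAC on either strand was in 3 of the 9 lower and in 3 of the 3 higher windows, in 50% of those that did not pass, in 51.7% of family windows and in 49.6% of all windows. GGCGCC, the letters of a BMP-responsive SMAD site, was in 3 of the 9 lower and 0 of the 3 higher windows, in 23.1% of those that did not pass, in 24.1% of family windows and in 11.9% of all windows. These are matches of letters and not measured binding. The Gdf15 window lies between its H3K4me3 peak and its H3K27ac peak, which lie 202 and 830 bases from a RefSeq start of the gene. Another RefSeq start within 1 kb shares the promoter peaks of Bmp4 (Gm15222), Bmp7 (Gm40010), Gdf10 (Gm30031), Gdf15 (Gm34154), Fst (Gm41074), Ltbp4 (Gm30543) and Tgfbr2 (Gm40582), so signal there cannot be given to 1 of the genes.

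**Figure D2:**
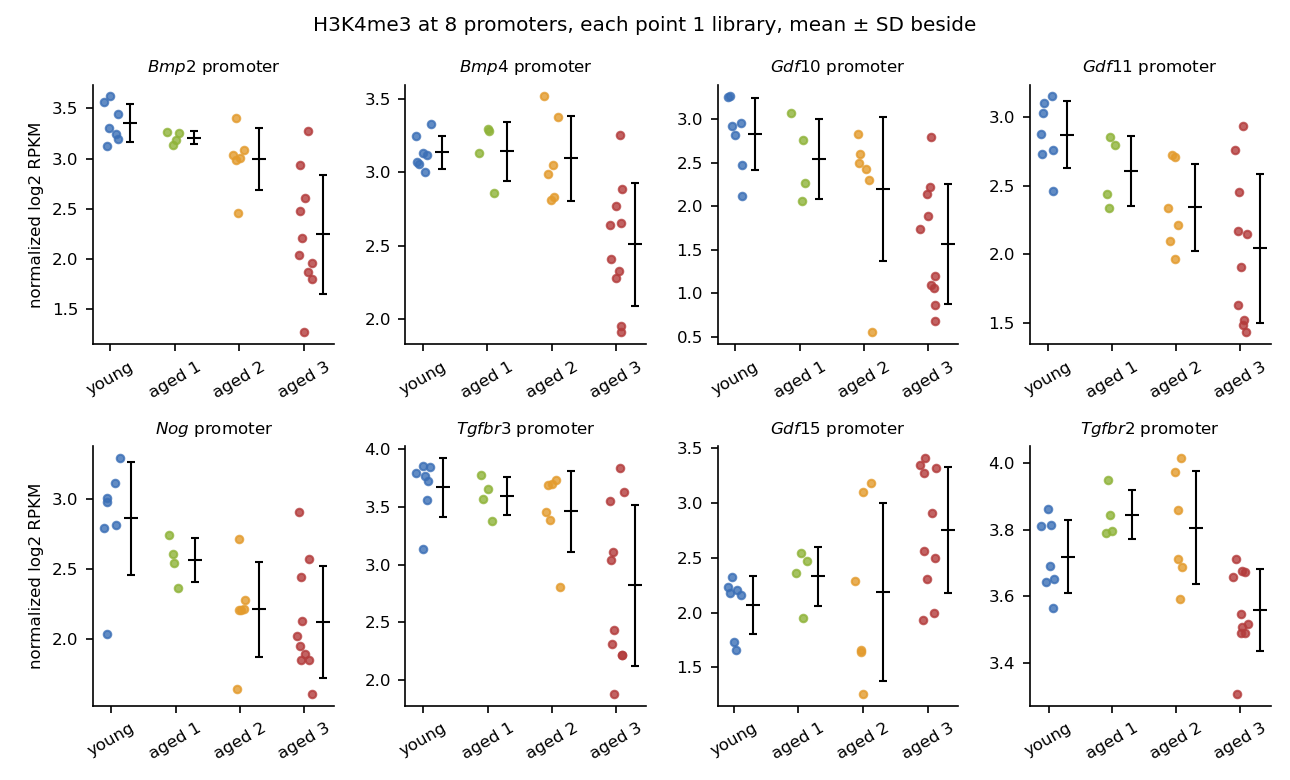
Promoter H3K4me3 (y axis, quantile-normalized log2 RPKM) in each library (points) of the 4 age groups (x axis), with group means and SDs as bars, for 8 member promoters, 6 that fell, Gdf15 and Tgfbr2. At Bmp2 the aged group 3 points run from 1.27 to 3.28 and the young points from 3.13 to 3.62, and at Gdf15 the aged group 3 points reach 3.41, above every young point.

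Among antagonist promoters, as among those of ligands, falls outnumbered rises. Of 5 antagonist promoters, 3 fell and 0 rose in H3K4me3, beside 18.3% and 9% of all promoter peaks. Noggin (Nog), which binds BMP2 and BMP4 directly, ran from 2.04 to 3.30 in young (median 2.98), was 2.36, 2.55, 2.61 and 2.74 in aged group 1, ran from 1.65 to 2.72 in aged group 2 (median 2.21) and from 1.61 to 2.91 in aged group 3 (median 1.99). It fell by 0.74 ± 0.18 log2 (limma adjusted p = 0.00412). The young library at 2.04 is replicate 5; the other young libraries were at 2.80 or above. Follistatin (Fst), which sequesters activins, fell by 0.35 ± 0.12 (limma adjusted p = 0.0347), with ranges of 2.82 to 3.77 in young and 2.69 to 3.50 in aged group 3. It passed in 8 of the 17 fits without 1 library (highest adjusted p = 0.107). Its relative Fstl3 fell by 0.63 ± 0.19 (limma adjusted p = 0.0123), from a young range of 2.16 to 2.96 to 1.25 to 2.76, and 8 of 10 libraries were below every young one. Grem1 was at -0.36 ± 0.26 and did not pass (limma adjusted p = 0.298).

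Fstl1, a secreted glycoprotein related to follistatin, had the greatest promoter loss of H3K4me3 outside the ligands. Its promoter ran from 2.78 to 3.61 in young (median 3.23), was 2.93, 2.96, 2.96 and 3.13 in aged group 1, ran from 2.18 to 3.18 in aged group 2 (median 2.85) and from 1.41 to 3.39 in aged group 3 (median 2.11). The change was -0.96 ± 0.23 log2 (limma adjusted p = 0.00386), and 7 of 10 libraries were below every young library. It was 0.07 with the score as a covariate (limma adjusted p = 0.873). Among the latency proteins, Ltbp4 fell by 0.42 ± 0.12 (limma adjusted p = 0.013), from a narrow young range of 2.97 to 3.15 to 2.13 to 3.10. Ltbp1 (0.00 ± 0.09, limma adjusted p = 0.975) and Ltbp3 (-0.02 ± 0.15, p = 0.921) were near 0, and Ltbp2 was at 0.74 ± 0.40 (p = 0.154). A pair of weak Ltbp4 gene body peaks, of 23 and 40 reads, rose by 0.90 and 1.21 (limma adjusted p = 0.0193 and 0.0318), so the gene held changes in both directions. The first of these calls was lost without young replicate 5 (adjusted p = 0.0548), and the second passed in 8 of 17 fits that each left out 1 library.

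Few receptor promoters passed in H3K4me3. Of 12 receptor genes, 1 fell and 0 rose, beside 18.3% and 9% of all promoter peaks, and 4 had an unadjusted p under 0.05. The one that fell is Tgfbr3, or betaglycan, a co-receptor that presents TGF-beta 2 to the signalling receptors and also binds inhibin. Its promoter ran from 3.14 to 3.86 in young (median 3.77), was 3.38, 3.57, 3.65 and 3.78 in aged group 1, ran from 2.81 to 3.73 in aged group 2 (median 3.57) and from 1.88 to 3.83 in aged group 3 (median 2.74). It changed by -0.85 ± 0.22 log2 (limma adjusted p = 0.00556). The 4 type II receptors had negative changes of -0.27 ± 0.10 for Acvr2b (limma adjusted p = 0.0503), -0.16 ± 0.07 for Tgfbr2 (p = 0.0719), -0.08 ± 0.05 for Bmpr2 (p = 0.187) and -0.03 ± 0.05 for Acvr2a (p = 0.645). Acvr2a, an activin receptor, had the highest promoter level of any receptor, from 4.31 to 4.61 in young and from 4.37 to 4.63 in aged group 3. Of the 7 type I receptors, 6 were positive, from 0.02 for Acvr1 to 0.30 ± 0.16 for Acvr1b (limma adjusted p = 0.146). Tgfbr1 was at -0.10 ± 0.07 (p = 0.278). A second, weaker start of the BMP receptor Bmpr1b, with 29 reads, rose by 0.91 ± 0.32 (limma adjusted p = 0.0299), from 0.38 to 1.62 in young to 0.92 to 2.56. This call was lost without young replicate 1 or 3 or aged group 3 replicate 2 or 8 (highest adjusted p = 0.068). In the gene body of Acvrl1, an endothelial type I receptor, all 10 libraries of aged group 3 (1.53 to 2.74) lay above every young one (0.93 to 1.50), a rise of 0.87 ± 0.22 (limma adjusted p = 0.00447).

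Among the 7 SMADs with an H3K4me3 promoter peak of their own name, Smad9 fell and the others did not pass, beside 18.3% of all promoter peaks that fell. Smad9, a BMP-activated SMAD, ran from 3.02 to 3.61 in young (median 3.40), was 3.18, 3.34, 3.37 and 3.50 in aged group 1, ran from 2.87 to 3.42 in aged group 2 (median 3.14) and from 1.76 to 3.34 in aged group 3 (median 2.52). The change was -0.68 ± 0.17 log2 (limma adjusted p = 0.00391), with 7 of 10 libraries below the young range. The other BMP-activated SMADs were at -0.19 ± 0.09 for Smad1 (limma adjusted p = 0.105) and 0.01 ± 0.08 for Smad5 (p = 0.958). The TGF-beta and activin SMADs were at -0.06 ± 0.07 for Smad2 (limma adjusted p = 0.581) and -0.10 ± 0.08 for Smad3 (p = 0.338). Common Smad4 was at 0.06 ± 0.09 (p = 0.624) and inhibitory Smad6 at 0.10 ± 0.08 (p = 0.351). Outside the promoters, a Smad1 gene body peak of 39 reads (79392268 to 79393465) rose by 0.75 ± 0.28 (limma adjusted p = 0.0418), from 0.62 to 1.50 in young to 0.01 to 2.85 in aged group 3. Of those 10 libraries, 9 were above every young one and 1 was below. The call was lost on values as deposited (adjusted p = 0.0706) and passed in 6 of 17 fits that each left out 1 library (highest adjusted p = 0.086).

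Further H3K4me3 calls inside genes were on medians of 10 to 79 reads. A pair of Gdf6 gene body peaks, of 32 and 49 reads, fell by 0.66 ± 0.22 (limma adjusted p = 0.025) and 0.41 ± 0.16 (p = 0.0454), and 7 of 10 libraries of aged group 3 were below every young one at each. A Bmp8a gene body peak of 10 reads fell by 1.16 ± 0.39 (limma adjusted p = 0.0262), while its promoter did not pass. A second Nog peak, inside the gene with 79 reads, fell by 0.74 ± 0.26 (limma adjusted p = 0.0322). Fstl4, a follistatin-like gene, held 1 gene body peak that rose by 0.93 ± 0.31 (limma adjusted p = 0.0247) and 1 that fell by 0.78 ± 0.28 (p = 0.0368). In the kinase gene Bmp2k, which matches by name alone, a gene body peak of 28 reads fell by 1.14 ± 0.34 (limma adjusted p = 0.0144), with 8 of 10 libraries below every young one. Of these 7 calls Bmp2k alone passed in all 17 fits that each left out 1 library. The Gdf6 peaks passed in 15 and 6, Bmp8a in 14, the Nog peak in 10, and the Fstl4 peaks in 15 and 7.

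Promoter H3K27ac showed losses at many of the same genes. Over the 33 genes with a promoter peak in both marks, 10 fell in both (Bmp7, Fst, Fstl1, Gdf7, Gdf10, Gdf11, Ltbp4, Tgfb2, Tgfb3 and Tgfbr3). Gdf15 alone rose in both, at peaks that do not overlap. Of the 33 genes, 0 passed in opposite directions, and 5 had changes of opposite sign that did not both pass. Among all promoter peaks, 18.3% fell in H3K4me3 and 19.3% in H3K27ac. The share of all genes that fell in both marks was not computed, so the count of 10 has no background beside it. Fstl3 and Smad9 (2 genes) passed in H3K4me3 and not in H3K27ac, where they were at -0.42 ± 0.23 (limma adjusted p = 0.16) and -0.62 ± 0.24 (p = 0.0528). Acvr1b, Bmpr2, Smad1 and Tgfbr2 (4 genes) passed in H3K27ac and not in H3K4me3, and 16 passed in neither. The difference between the marks was not tested. Smad1 promoter H3K27ac fell by 0.34 ± 0.13 (limma adjusted p = 0.0389). This call was lost on values as deposited (adjusted p = 0.099) and passed in 7 of 17 fits that each left out 1 library (highest adjusted p = 0.0907). The marks come from the same animals and are not independent of each other.

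The ligand Gdf11 had the smallest adjusted p of the H3K27ac promoters, on a median of 12 reads. It lay between 0.77 and 2.24 log2 RPKM in young (median 1.54), at 0.69, 1.32, 1.45 and 1.81 in aged group 1, between 0.31 and 2.02 in aged group 2 (median 1.00), and between -0.80 and 1.56 in aged group 3 (median 0.13). The change was -1.30 ± 0.27 (limma adjusted p = 0.00302), and 9 of 10 libraries were below every young one. The change at Gdf11 was -1.25 with the score as a covariate (limma adjusted p = 0.236). Gdf10 ran from 0.14 to 2.09 in young (median 1.69), was 0.74, 0.95, 1.24 and 1.44 in aged group 1, ran from 0.14 to 1.47 in aged group 2 (median 0.84) and from -0.68 to 1.39 in aged group 3 (median 0.34). It fell by 1.05 ± 0.29 (limma adjusted p = 0.0124), although the groups overlapped in 5 of 10 libraries. Bmp7 ran from 0.45 to 2.19 in young (median 1.39), was -0.41, 0.39, 1.23 and 1.46 in aged group 1, ran from 0.28 to 1.35 in aged group 2 (median 0.51) and from -0.27 to 1.62 in aged group 3 (median 0.15). Its change was -1.11 ± 0.29 (limma adjusted p = 0.00924), while aged group 2 was at -0.85 ± 0.33 against young and did not pass (p = 0.485).

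Tgfb2 H3K27ac ran from 2.06 to 2.46 in young (median 2.24), was 1.99, 2.03, 2.20 and 2.21 in aged group 1, ran from 1.50 to 2.37 in aged group 2 (median 1.98) and from 0.80 to 2.41 in aged group 3 (median 1.17), a change of -0.78 ± 0.19 (limma adjusted p = 0.00663). Tgfb3 ran from 1.47 to 2.46 in young (median 2.11), was 2.04, 2.25, 2.25 and 2.29 in aged group 1, ran from 1.82 to 2.27 in aged group 2 (median 2.07) and from 1.21 to 2.25 in aged group 3 (median 1.44), a change of -0.50 ± 0.15 (limma adjusted p = 0.0159). In aged group 3, 7 libraries at Tgfb2 and 6 at Tgfb3 were below the young range. Follistatin, with 18 reads, ran from 1.23 to 2.18 in young (median 1.60), was 0.45, 1.07, 1.46 and 1.50 in aged group 1, ran from 0.41 to 1.45 in aged group 2 (median 1.23) and from -0.55 to 2.01 in aged group 3 (median 0.75). It fell by 1.05 ± 0.29 (limma adjusted p = 0.0114). Neither Bmp2 nor Bmp4 had an H3K27ac peak at its start, but each had 1 inside the gene, which fell by 1.10 ± 0.31 (limma adjusted p = 0.012) and 0.89 ± 0.22 (p = 0.007). Fstl1 fell by 0.69 ± 0.21 (limma adjusted p = 0.02), Ltbp4 by 0.44 ± 0.14 (p = 0.0182) and Gdf7 by 0.93 ± 0.31 (p = 0.026), and the Gdf7 call passed in 12 of 17 fits that each left out 1 library (highest adjusted p = 0.0651). Gdf15 rose by 0.93 ± 0.30 (limma adjusted p = 0.0243), with 6 of 10 libraries above every young one, and its adjusted p was 0.0504 without aged group 3 replicate 6.

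Of 11 receptor promoters with an H3K27ac peak, 3 fell and 1 rose, beside 19.3% and 6.74% of all promoter peaks. The TGF-beta receptor Tgfbr2 ran from 2.28 to 2.56 in young (median 2.43), was 2.30, 2.45, 2.50 and 2.65 in aged group 1, ran from 2.02 to 2.40 in aged group 2 (median 2.34) and from 1.68 to 2.35 in aged group 3 (median 1.97). It fell by 0.42 ± 0.10 (limma adjusted p = 0.00497), with 8 of 10 libraries below every young one. Tgfbr3 ran from 1.37 to 1.86 in young (median 1.79), was 1.28, 1.60, 1.64 and 1.68 in aged group 1, ran from 0.54 to 1.75 in aged group 2 (median 1.62) and from 0.40 to 1.75 in aged group 3 (median 0.90), and fell by 0.75 ± 0.20 (limma adjusted p = 0.0101). Bmpr2, the BMP type II receptor, fell by 0.26 ± 0.09 (limma adjusted p = 0.0331), and Acvr1b, an activin type I receptor, rose by 0.33 ± 0.12 (p = 0.0419). Bmpr2 and Acvr1b passed in 10 and 4 of 17 fits that each left out 1 library (highest adjusted p = 0.0859 and 0.0874). Whether the change at a receptor differed between H3K4me3 and H3K27ac was not tested.

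**Figure D3:**
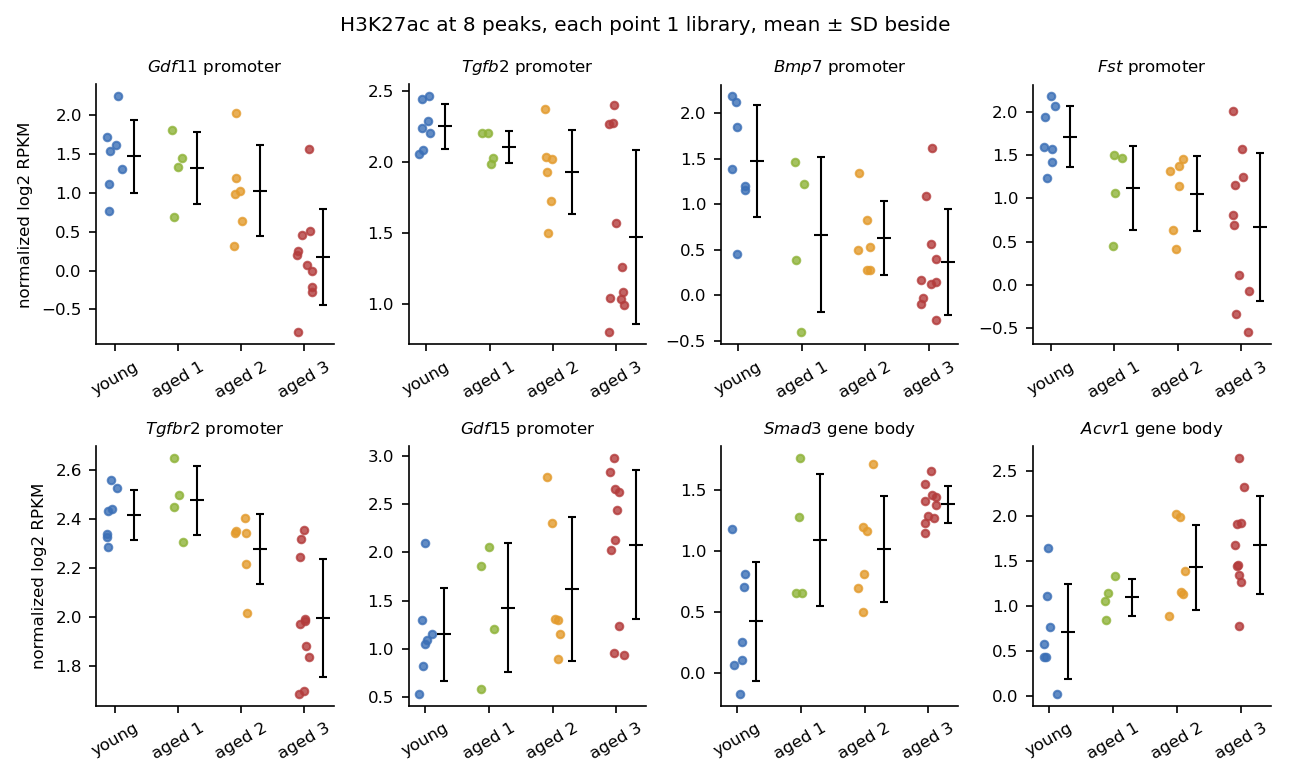
H3K27ac (y axis, quantile-normalized log2 RPKM) in each library (points) of the 4 age groups (x axis), with group means and SDs as bars, for 6 member promoters and for gene body peaks of Smad3 and Acvr1. Tgfbr2 runs from 2.28 to 2.56 in young and from 1.68 to 2.35 in aged group 3, and Gdf11, on few reads, spreads from -0.80 to 1.56 in aged group 3, while the Smad3 gene body peak lies between 1.14 and 1.65 there.

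Most H3K27ac members lay outside promoters, with 152 gene body and 10 flank peaks beside 36 promoter peaks. The co-receptor gene Tgfbr3 held 28 of the 198, over 189.7 kb of chromosome 5, and ranked number 46 of 16763 genes by number of H3K27ac peaks. All 28 changes at Tgfbr3 were negative, from -1.10 to -0.22 (median -0.77), and 22 passed, beside 12.2% of all gene body H3K27ac peaks that fell. Tgfbr3 thus held 22 of the 54 member peaks that fell. These 28 peaks lie at 1 locus and share their libraries, so they are not separate observations of the gene. In a Tgfbr3 gene body peak of 173 reads, 107164703 to 107169482, the young libraries ran from 1.93 to 2.24 (median 2.07), aged group 1 was at 1.60, 1.88, 1.96 and 2.02, aged group 2 ran from 1.43 to 2.16 (median 1.93) and aged group 3 from 0.99 to 2.03 (median 1.34). It changed by -0.63 ± 0.14 (limma adjusted p = 0.00353), and 9 of 10 libraries were below every young one. Gene body peaks at 107232921 and 107159329 fell by 0.77 ± 0.17 (limma adjusted p = 0.00369) and 0.91 ± 0.23 (p = 0.00681). With any 1 library left out, between 16 and 24 Tgfbr3 peaks fell. In each mark, 3 libraries of aged group 3, 1 of aged group 2 and 0 of young carry code digit 6. The meaning of this digit of the library name is not given in the sources used here. Without these libraries aged group 3 held 7, and 2 Tgfbr3 peaks passed while all 28 stayed negative. With the code digit as a factor 0 passed (limma, adjusted), 19 had an unadjusted p under 0.05 and 28 were negative. In mice numbered under 100 alone 0 passed, 18 had an unadjusted p under 0.05 and 27 were negative. With the score as a covariate 0 passed, 2 had an unadjusted p under 0.05, 22 were negative and the median was -0.15.

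Tgfbr2 held 18 H3K27ac peaks over 96.8 kb, of which 6 fell and 17 were negative (median -0.35). Of all H3K27ac peaks, 14.9% fell, which is the background for Tgfb2 and Bmp7 below too. Of all 54354, 29947 were negative (median -0.06). The smallest adjusted p of any member H3K27ac peak was in its gene body, 27694 bases from the start, where young libraries ran from 2.04 to 2.36 and aged group 3 from 0.95 to 2.33, a fall of 0.71 ± 0.15 (limma adjusted p = 0.00263). The number of Tgfbr2 peaks that fell was 3 without young replicate 3 or 6, 4 without young replicate 2 or 7 or aged group 3 replicate 1, between 5 and 8 without any other library, and 1 with library code digit as a factor. At Tgfb2, 4 of 4 peaks fell, among them a gene body peak of 16 reads by 1.08 ± 0.25 (limma adjusted p = 0.00504). This count was 2 without young replicate 1, 2, 6 or 7 or aged group 3 replicate 1, 2 or 6. At Bmp7, 4 of 5 peaks fell, a count that was 3 or 4 with 1 library left out, and 0 of its peaks remained after the filter on low levels. An Fstl1 gene body peak fell by 1.01 ± 0.23 (limma adjusted p = 0.00499), and a flank peak named for the protease gene Bmp1, of 18 reads, by 1.17 ± 0.24 (p = 0.00286). At the Bmp1 peak all 10 libraries of aged group 3 (-0.54 to 1.16) lay below every young one (1.28 to 1.98). Smad3, the TGF-beta-activated SMAD, went the other way. Of its 18 peaks over 108.9 kb of chromosome 9, 6 rose and 0 fell, with 13 positive and a median of 0.28, beside 16.6% of all gene body H3K27ac peaks that rose. Among these, the peak, 63700717 to 63701956 with 33 reads ran from -0.17 to 1.18 in young (median 0.26), was 0.65, 0.66, 1.28 and 1.76 in aged group 1, ran from 0.50 to 1.71 in aged group 2 (median 0.98) and from 1.14 to 1.65 in aged group 3 (median 1.39). It rose by 0.96 ± 0.21 (limma adjusted p = 0.00353), and 9 of 10 libraries of aged group 3 were above every young one. Another Smad3 gene body peak, at 63658608 with 21 reads, rose by 1.08 ± 0.25 (limma adjusted p = 0.00523). The promoter peak of Smad3 itself was at -0.27 ± 0.11 and did not pass (limma adjusted p = 0.065). When peaks under the lower quartile of mean level were left out, 14 Smad3 peaks remained and 1 of them rose. With the score as a covariate 0 Smad3 peaks passed, 2 had an unadjusted p under 0.05, and the median was 0.11.

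Other rises were spread over receptors, inhibitory SMADs and latency proteins. Inhibitory Smad6 held a gene body peak of 108 reads that rose by 0.63 ± 0.15 (limma adjusted p = 0.00482), where all 10 libraries of aged group 3 (1.74 to 2.37) lay above every young one (0.82 to 1.70). A flank peak of Acvr1b rose by 1.09 ± 0.26 (limma adjusted p = 0.00512), and a gene body peak of the BMP receptor Acvr1 by 0.96 ± 0.23 (p = 0.00615). By role, type I receptors had 6 rising and 0 falling of 34 H3K27ac peaks, or 17.6%, beside 14.4% of all peaks that rose and 14.9% that fell. Type II receptors had 1 and 7 of 27, and Tgfbr2 held 6 of the 7. Receptor-activated SMADs had 6 and 1 of 31, with all 6 rises at Smad3. Inhibitory SMADs had 3 and 0 of 9, and latency proteins 4 and 1 of 16, with 3 of the 4 at Ltbp1. Among ligands, 0 rose and 5 fell of 5 TGF-beta peaks (4 at Tgfb2), 0 and 6 of 11 BMP peaks (4 at Bmp7), and 1 and 4 of 9 GDF peaks. Most of these counts thus rest on single loci, whose peaks are not separate observations. Ltbp1, which tethers latent TGF-beta in the matrix, had 3 rising and 0 falling of 8 peaks, and all 5 Ltbp2 peaks were positive with 0 passing.

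**Figure D4:**
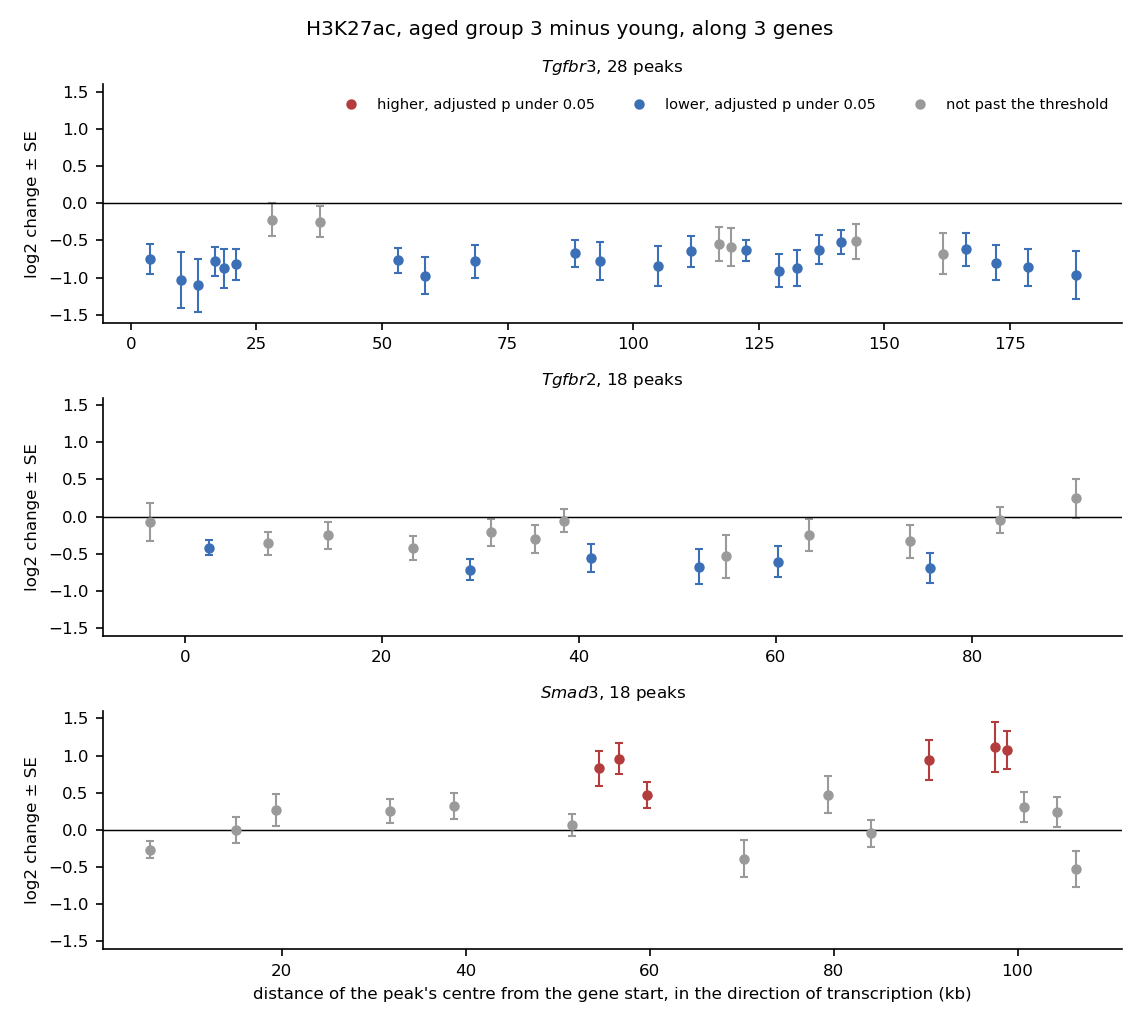
Log2 change in H3K27ac, aged group 3 minus young (y axis, with standard errors), for each peak of Tgfbr3, Tgfbr2 and Smad3 by its distance from the gene's start (x axis, kb); blue points fell and red points rose in the limma test, and grey points did not pass. All 28 Tgfbr3 peaks lie below 0, 17 of 18 Tgfbr2 peaks do, and 13 of 18 Smad3 peaks lie above 0.

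The losses were carried by some libraries of the oldest group and not by all. At the 16 lower H3K4me3 promoters, replicates 2, 6, 7 and 9 of aged group 3 were below every young library at 16 of 16, replicate 8 at 15, replicate 5 at 14 and replicate 1 at 11. Replicates 10, 4 and 3 were below at 5, 4 and 3. At the 13 lower H3K27ac promoters, replicates 2, 6 and 9 were below at 13 of 13, and replicates 10, 4 and 3 at 3, 2 and 1. The libraries with few losses were those whose H3K4me3 score was -1.31, -0.239 and -0.294, and the other libraries of that group had scores between 0.909 and 2.29. Since these promoters were called from the same libraries, the counts are a description. When the score entered the model, 0 of 30 H3K4me3 and 0 of 75 H3K27ac calls at members passed (limma, adjusted), with 12 and 20 member peaks at an unadjusted p under 0.05. Over all peaks, 0.678% and 0.0791% passed the adjusted threshold in that model, which is not the background for the unadjusted counts.

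**Figure D5:**
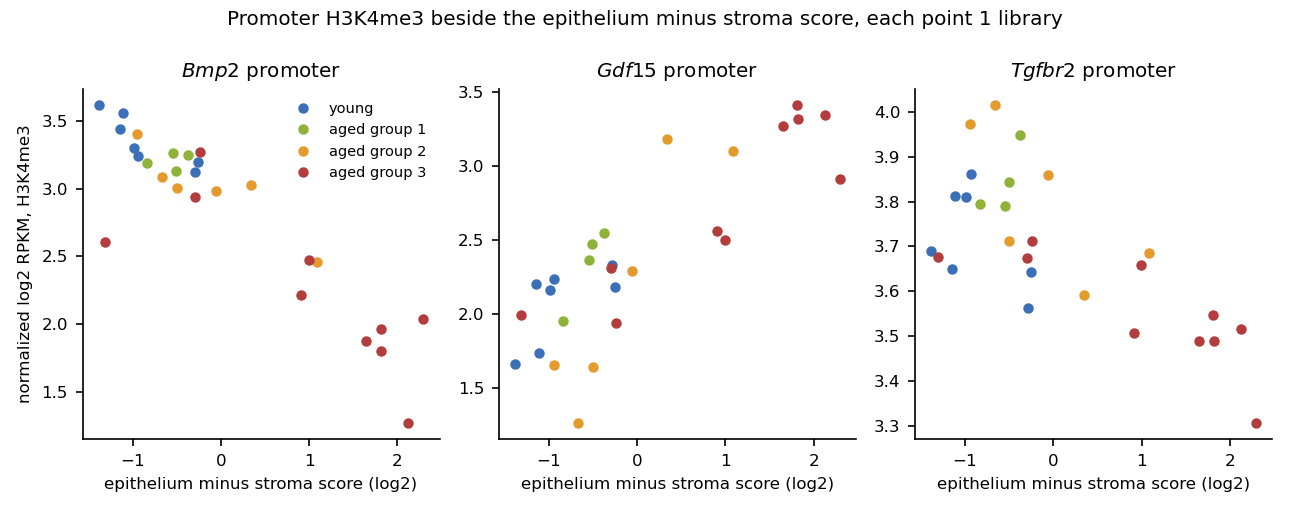
Promoter H3K4me3 of Bmp2, Gdf15 and Tgfbr2 (y axis, quantile-normalized log2 RPKM) against the epithelium minus stroma score of the same library (x axis, log2), for all 27 libraries coloured by age group. At Bmp2 the libraries of aged group 3 with scores between 0.909 and 2.29 sit lowest, and at Gdf15 they sit high, while those at -0.294, -0.239 and -1.31 lie nearer the young libraries.

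Earlier ages showed no member past the threshold. In aged group 2 against young, 0 of 89 H3K4me3 peaks passed (limma, adjusted), beside 0.217% of all peaks. An unadjusted p under 0.05 was found at 5 of the 89, beside 7.7% of all peaks. For H3K27ac 0 of 198 passed, beside 0.011% of all peaks, and 15 had an unadjusted p under 0.05, beside 8.92%. In aged group 1 against young, 0 passed in either mark (limma, adjusted), beside 0.00387% and 0% of all peaks. An unadjusted p under 0.05 was found at 3 and 8, beside 3.61% and 3.93% of all peaks. In aged group 3 against aged group 2, 0 passed in either mark (limma, adjusted), beside 0.205% and 0% of all peaks. An unadjusted p under 0.05 was found at 22 and 38, beside 21.6% and 16% of all peaks. This comparison depended on single libraries. In H3K4me3, 6 member peaks passed without aged group 2 replicate 5, 6 without aged group 3 replicate 3, 8 without replicate 4 and 10 without replicate 10, and in H3K27ac 1 passed without aged group 2 replicate 5 or aged group 3 replicate 3. With a weight for each library 29 and 76 passed. For Bmp2, aged group 2 differed from young by -0.36 ± 0.21 (limma adjusted p = 0.73), with the lowest of its libraries, at 2.46, under the young range and its highest, at 3.41, inside it.

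Of 63 RefSeq protein-coding genes that fit the symbol rule, 12 had no peak under their own name (Bmp10, Bmp15, Chrd, Fstl5, Gdf1, Gdf3, Gdf9, Inha, Inhba, Inhbc, Inhbe and Tgfb1). Some of their starts lay under peaks that the tables name for a neighbour, and these are not in the counts above. This held too for the start of Smad7, whose own peaks held 23 H3K4me3 and 36 H3K27ac reads. The peak named Gm20544 over that start did not pass in H3K4me3 (0.24 ± 0.10, limma adjusted p = 0.066) or H3K27ac (0.07 ± 0.11, p = 0.63). Within 1 kb of a start of the kinase gene Bmp2k, the peak named Gm9484 did not pass in H3K4me3 (-0.32 ± 0.13, limma adjusted p = 0.0584). It passed in H3K27ac (-0.42 ± 0.13, p = 0.0235). The start of Tgfb1, a major TGF-beta ligand, lay under a peak named B9d2, with H3K4me3 from 3.58 to 3.91 in young and 3.34 to 3.84 in aged group 3, a change of -0.09 ± 0.09 (limma adjusted p = 0.464). The start of Inha, the inhibin alpha subunit, lay under a peak named Obsl1, which ran from 3.03 to 3.71 in young and from 1.60 to 3.14 in aged group 3. It fell by 1.11 ± 0.21 in H3K4me3 (limma adjusted p = 0.000659) and by 1.12 ± 0.20 in H3K27ac (p = 0.0013), and the signal cannot be given to 1 of the genes. At the start of Inhba, an activin subunit, the peak named B230303A05Rik fell by 0.32 ± 0.08 in H3K4me3 (limma adjusted p = 0.004). It did not pass in H3K27ac (-0.12 ± 0.14, p = 0.51). At the BMP antagonist Chrd, the peak named Thpo fell by 0.40 ± 0.14 in H3K4me3 (limma adjusted p = 0.0329) and did not pass in H3K27ac (-0.26 ± 0.23, p = 0.372). At Gdf1, the H3K4me3 peak named Cers1 fell by 0.91 ± 0.24 (limma adjusted p = 0.00604). There too the signal cannot be given to 1 of the genes.

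A list of 57 further pathway genes, chosen by role, was read in the same way, and 48 of them had a peak. Their H3K4me3 rose at 13 and fell at 8 of 73 peaks, or 28.8%, beside 30.7% of all peaks, and 38 of the 73 changes were negative (median -0.03). Their H3K27ac rose at 37 and fell at 14 of 144, or 35.4%, beside 29.3%, and 71 of the 144 changes were negative (median 0.01). The sublists did not share 1 direction. Ligands and genes that control them rose at 2 and fell at 5 of 26 H3K4me3 peaks and rose at 20 and fell at 7 of 51 H3K27ac peaks, and receptors and transducers rose at 1 and fell at 2 of 23, and rose at 4 and fell at 6 of 51. Transcriptional targets and SMAD co-factors rose at 10 and fell at 1 of 24 H3K4me3 peaks, beside 14.2% and 16.4% of all peaks, and rose at 13 and fell at 1 of 42 H3K27ac peaks. With 1 H3K4me3 promoter peak per gene, 5 of 13 genes of this sublist rose and 1 fell, beside 9% and 18.3% of all promoter peaks. The BMP target Id1 rose at its promoter by 0.50 ± 0.19 (limma adjusted p = 0.0446), from 3.04 to 4.02 in young to 3.07 to 4.55 in aged group 3. The homeobox gene Dlx5 rose by 0.82 ± 0.19 (limma adjusted p = 0.003), Msx2 by 1.14 ± 0.44 (p = 0.0463), the SMAD corepressor Skil by 0.27 ± 0.10 (p = 0.0464) and the feedback inhibitor Pmepa1 by 0.65 ± 0.25 (p = 0.0454). Id1, Msx2, Skil and Pmepa1 passed close to the threshold, and their calls with 1 library left out are not given here. The epithelial marker level rose in aged group 3 too, and its part in these rises was not tested. Integrin beta 6 (Itgb6), an epithelial integrin that releases active TGF-beta, rose by 1.58 ± 0.29 at its promoter (limma adjusted p = 0.000526), from 1.51 to 3.09 in young to 2.95 to 4.93 in aged group 3. Promoter H3K4me3 of the secreted BMP regulators Bmper and Sostdc1 fell by 0.64 ± 0.14 (limma adjusted p = 0.00171) and 1.18 ± 0.24 (p = 0.00125), that of Lefty1 by 0.56 ± 0.18 (p = 0.0235), and that of Tgfb1i1, a smooth muscle and stromal co-factor also called Hic-5, by 1.06 ± 0.24 (p = 0.00272). With the score as a covariate, 0 peaks of this list passed in either mark (limma, adjusted).

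Promoter H3K4me3 at Bmp2 was compared over the 27 libraries with 11806 other promoter peaks, those at or above the lower quartile of mean level. The peaks that followed it most closely were at Usp13 (r = 0.961, rho = 0.923), Gm15912 (0.959 and 0.910), Gm28523 (0.956 and 0.869), P3h4 (0.954 and 0.934) and Wt1os (0.954 and 0.861). These are Pearson and Spearman coefficients over libraries that share age groups and the score, and they are given as a description.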

How the data were processed

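H3K4me3 and H3K27ac ChIP-seq of mouse uterus was analysed in 27 animals per mark. The authors deposited 1 table per mark with a log2 RPKM value for each peak and library. The submitters' processing notes name the build GRCm38, the aligner Bowtie2, the annotator ChIPseeker 1.34.1, the peak caller MACS2 2.2.9.1 and DiffBind 3.8.0 with DESeq2, without saying how each was run, and each peak's gene name comes with the tables. The deposited values correspond to whole reads (100% within 0.05 of a read), with peaks of no reads set to 0.9 reads, so low peaks have compressed differences. The 5 input samples were not used, and 8 peaks on chromosome Y per mark were left out.

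Values were quantile-normalized. limma 3.58.1 (R 4.3.3) fitted 4 group means with a trend, with 23 residual degrees of freedom, and p-values were adjusted by Benjamini-Hochberg over all 25827 or 54354 peaks, at a threshold of 0.05. Count models were not used. The deposited unit is log2, and the whole reads recovered from it were used here to describe depth. The script was tested on simulated data. No pair of the 27 libraries of a mark was identical. Depth limits low peaks, and changes there are less certain.

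Named are all promoter peaks past the threshold in either mark, the 8 promoter peaks and the 12 other peaks of smallest p per mark, the promoter of highest level in each role, and pathway genes from the list. The members, gene lists and tests were chosen with earlier results of these data known. Alternatives covered scaling, a filter on low levels, library code digit, mouse number series, the marker score (epithelium minus stroma) as a covariate, a replicate block, library weights and leaving out each library. Age groups were unequal in mouse number: 6 young and 3 aged group 3 animals have numbers under 100, against 0 in the groups between. Their meaning is not given in the sources used here. Code digits were unequal between ages too, with digit 6 in 3 libraries of aged group 3 per mark and in 0 of young. Promoter sequences are from RefSeq (GRCm38.p6). Python 3.11.15, pandas 2.3.3 and scipy 1.17.1 were used. The values of 1 member are not reported here, and it is included in the counts.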

Additional observations from a re-analysis of the deposited data

Results flagged for a closer look

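Within age groups, 21 of 292 sets of 4 to 10 values (7.19%) held a library whose gap to the nearest other, as a share of the range, was above Dixon's 95% critical value. Most of these sets, but not all, were values at the 71 named peaks. Chance flags about 1 in 20 sets. Aged group 2 replicate 5 accounted for 5 of them and young replicate 5 for 4.

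In aged group 2, replicate 5 was low in H3K4me3 at the promoters of Fstl3 (1.85, others 2.33 to 2.34), Tgfbr3 (2.81, others 3.39 to 3.73) and Gdf10 (0.55, others 2.30 to 2.83), and in H3K27ac at the Tgfbr3 promoter (0.54, others 1.47 to 1.75) and a Tgfbr3 gene body peak (0.67, others 1.31 to 1.64). Young replicate 5 was low in H3K4me3 at Nog (2.04, others 2.80 to 3.30), Tgfbr3 (3.14, others 3.56 to 3.86), Inhbb (1.31, others 1.98 to 2.34) and Bmpr2 (3.89, others 4.08 to 4.15).

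Other H3K4me3 values set apart were aged group 2 replicate 3 at Ltbp1 (2.99, others 3.47 to 3.61) and Smad4 (2.84, others 3.29 to 3.54), aged group 1 replicate 3 at Fstl1 (3.13, others 2.93 to 2.96), and aged group 1 replicate 2 at Bmpr2 (3.91, others 4.09 to 4.12). Young replicate 2 was high at Acvr1b (3.35, others 3.08 to 3.19). In aged group 3, replicate 10 was low at Bmp8b (0.79, others 1.62 to 2.19) and replicate 4 at a Smad1 gene body peak (0.01, others 1.51 to 2.85).

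Other H3K27ac values set apart were aged group 1 replicate 4 at Tgfb3 (2.04, others 2.25 to 2.29), aged group 2 replicate 2 at Bmpr2 (2.43, others 2.66 to 2.80) and aged group 2 replicate 4 at Fstl3 (-0.04, others 0.67 to 1.03). At 1 Smad3 gene body peak, aged group 1 replicate 3 was high (1.29, others 0.53 to 0.66) and aged group 3 replicate 4 was low (0.31, others 0.95 to 1.58).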

How the results depend on the processing

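In aged group 3 against young, 30 H3K4me3 and 75 H3K27ac member peaks passed, and 21 and 51 peaks of the other pathway genes. The counts of members were 22 and 84 on values as deposited and 31 and 90 with each library centred on its median. They were 18 and 47 after the filter on low levels, 8 and 7 with library code digit as a factor, 7 and 37 with mouse number series as a factor, and 7 and 11 without the libraries of code digit 6. They were 0 and 0 with the marker score as a covariate and 0 and 0 in mice numbered under 100 alone (22 and 62 at an unadjusted p under 0.05), and 53 and 134 with a weight per library. In the same order from the filter on, the pathway counts were 11 and 31, 5 and 3, 9 and 27, 7 and 5, 0 and 0, 3 and 0, and 39 and 96. Leaving out 1 library gave 19 (without young replicate 1) to 39 H3K4me3 and 51 to 92 H3K27ac member peaks, and 13 to 28 and 33 to 65 pathway peaks, the lowest without young replicate 2. The score difference ranged from 1.701 to 2.101 and from 1.257 to 1.582 without 1 library. In aged group 2 against young, 1 H3K4me3 member peak passed with weights, against 0. In aged group 3 against aged group 2, weights gave 29 and 76, the mouse series factor gave 1 H3K4me3 peak, and leaving out 1 library gave 0 to 10 and 0 to 1.

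Whether replicate numbers pair the animals is not given in the sources used here, and the correlations do not decide it. Correlations of same-numbered libraries between groups ran from -0.36 to 0.53. For young and aged group 2 in H3K27ac, 4 of 6 were over 0.1 and 3 libraries matched their own number best. For young and aged group 1 in H3K4me3, 0 of 4 were over 0.1 and 0 matched best. In aged groups 1 and 2 the replicate number equals the library code digit. A replicate block gave 24 and 70 member peaks. Of 57 named peaks that passed, 48 still passed with the block, 46 as deposited, 15 with the code digit, 27 with the mouse series, 17 without code digit 6, 0 with the score covariate and 57 with weights, and 38 passed in each fit that left out 1 library.

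With the score as a covariate 13 changes turned in sign, none past the threshold. In H3K4me3 these were the promoters of Fst (0.0428), Tgfbr3 (0.11), Fstl1 (0.0738), Gdf15 (-0.27), Gdf7 (0.22), Tgfb2 (0.0265) and Tgfb3 (0.0192), and gene body peaks of Ltbp4 (-0.63) and Nog (0.16). In H3K27ac they were the promoters of Smad1 (0.0033), Fstl1 (0.0881), Gdf15 (-0.0049) and Gdf7 (0.25). The cause was not tested. The median change of all peaks was -0.14 in both marks as deposited and -0.02 and -0.06 after normalization.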
